A study of Mus musculus with 16 samples.

Results

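The replication-dependent histone genes encode the core histones H2A, H2B, H3 and H4 and the linker histone H1. They were taken here as the protein-coding genes of the mm9 mouse genome whose symbol begins with Hist1h, Hist2h, Hist3h or Hist4h, which gave 67 of 22367 protein-coding genes. The 67 genes comprise 6 for H1, 19 for H2A, 18 for H2B, 11 for H3 and 13 for H4. Of these, 55 carry a Hist1h symbol, 9 a Hist2h symbol, 2 a Hist3h symbol and 1 a Hist4h symbol.

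Chromatin immunoprecipitation with sequencing gave peak lists of H3K4me3, H3K9me3 and H3K27me3 for 4 cell populations, which were sorted from the skin of wild-type male CD1 x FVB mice. EA-HFSCs are CD34+/α6-integrin+ bulge hair follicle stem cells at postnatal days 22 to 25, in early anagen, when these cells divide. LC-HFSCs were sorted with the same markers at postnatal days 38 to 44, in late catagen, when they are quiescent, and non-EA-HFSCs and non-LC-HFSCs are the CD34-/α6-integrin+ cells of the same ages, mostly epidermis and lower outer root sheath. Animals were pooled and replicate experiments were merged before peaks were called against IgG, so each population and mark is 1 list, and differences between populations could not be checked on replicates or tested. The score of a peak is 10 times the negative log10 of its p-value, and because it grows with the number of reads it was ranked within its own list only.

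DNA replication doubles the chromatin that a cell has to package, and these genes supply the histones for it during S phase. They lie in clusters, mostly have 1 exon, and give messenger RNAs that end in a stem-loop in place of a poly(A) tail. The stem-loop is bound by SLBP and the RNA is cut with the help of the U7 snRNP, while NPAT, a target of cyclin E and CDK2, drives their transcription. H3K4me3 marks the starts of genes that are active or poised, H3K27me3 is laid down by Polycomb, and H3K9me3 is known mainly from silent heterochromatin.

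The 67 genes fell into 8 clusters when starts at most 100 kb apart were joined. Clusters 4 to 8 lie on chromosome 13 and hold the 55 Hist1h genes: cluster 4 has 18 genes, cluster 5 has 5 and cluster 6 has 29, while cluster 7 holds Hist1h2ba with Hist1h2aa and cluster 8 holds Hist1h2al alone. The 9 Hist2h genes form cluster 1 on chromosome 3, Hist4h4 stands alone on chromosome 6 as cluster 2, and Hist3h2ba and Hist3h2a form cluster 3 on chromosome 11.

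Most of these genes carried the histone stem-loop, which few other genes had. The letters GGCNCTTTTCAGNGCC, the conserved histone stem-loop with N for any base, were searched on the gene's strand in the 300 bp after the stop codon. They were found at 47 of 67 histone genes (70.1%) and at 48 of all 21920 protein-coding genes searched (0.219%), so that 1 gene outside the family, 1700014N06Rik, held them. The element began 23 to 58 bases after the stop codon, with a median of 31. Among the other 20 histone genes, 14 differed from these letters by 1 base, 3 by 2 bases, and 3 (Hist2h2be, Hist2h2bb and Hist1h2al) by more. Only 2 spellings occurred, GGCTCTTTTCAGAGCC at 39 H1, H2A, H2B and H3 genes and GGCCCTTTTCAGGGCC at 8 H4 genes. The elements of the genes with the highest-scoring H3K4me3 peak of their family in EA-HFSCs are shown with 5 flanking bases, in mm9 and on the strand of the gene, with the stem-loop in capitals.
Hist1h1b, minus strand, stem-loop at chr13:21871706-21871721: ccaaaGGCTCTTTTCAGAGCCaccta
Hist1h2ac, minus strand, stem-loop at chr13:23775346-23775361: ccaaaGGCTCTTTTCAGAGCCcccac
Hist1h2bc, plus strand, stem-loop at chr13:23776516-23776531: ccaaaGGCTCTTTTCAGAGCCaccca
Hist1h3i, minus strand, stem-loop at chr13:21874789-21874804: caaaaGGCTCTTTTCAGAGCCccctc
Hist1h4h, plus strand, stem-loop at chr13:23623327-23623342: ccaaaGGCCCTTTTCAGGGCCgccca

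In the 250 bp before the start, the histone genes held known promoter letters more often than all genes did, counted on both strands. CCAAT, the letters bound by NF-Y, stood before 57 of 67 genes (85.1%, against 35.0% of all genes): before all 19 H2A, all 18 H2B and all 6 H1 genes, 10 of 11 H3 genes and 4 of 13 H4 genes. TATAAA stood before 33 (49.3%, against 12.3%), and the octamer ATTTGCAT, bound by OCT1, stood before 15 (22.4%, against 1.62%), of which 7 were H2A and 8 were H2B genes. A single exon was annotated for 62 of 67 (92.5%, against 13.9% of all genes). The ratio of observed to expected CpG within 500 bp of the start had a median of 0.879, against 0.549 for all genes and 0.727 for all genes with H3K4me3 in EA-HFSCs. These are matches of letters and not measured binding.

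H2A and H2B genes are often transcribed away from each other, and 12 such pairs had starts 168 to 306 bp apart. The sequence between the starts is shown for the pair with the highest-scoring H3K4me3 peak in EA-HFSCs, in mm9 and on the plus strand, with these promoter letters in capitals, reverse complements included.
Hist1h2ac/Hist1h2bc, chr13:23775818-23776067: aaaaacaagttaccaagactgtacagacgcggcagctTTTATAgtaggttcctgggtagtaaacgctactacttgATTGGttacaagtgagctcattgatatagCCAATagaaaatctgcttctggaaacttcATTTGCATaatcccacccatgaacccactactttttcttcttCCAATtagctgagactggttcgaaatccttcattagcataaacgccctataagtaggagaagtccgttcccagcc
A single H3K4me3 peak in EA-HFSCs, chr13:23774787-23778755 (3969 bp), covered both starts. Across the 12 pairs, 1 H3K4me3 peak spanned both starts at 9 pairs in EA-HFSCs, 8 in LC-HFSCs, 9 in non-EA-HFSCs and 9 in non-LC-HFSCs.

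H3K4me3 lay at nearly all histone genes in every population. A peak stood within 3000 bp of the start of 65 of 67 genes in EA-HFSCs (97.0%, 95% Wilson interval 89.8 to 99.2), where 60.4% of all protein-coding genes had one. LC-HFSCs had a peak at 57 (85.1%, 74.7 to 91.7), against 53.9% of all genes. Non-EA-HFSCs had one at 65 (97.0%), against 59.6% of all genes, and non-LC-HFSCs at 62 (92.5%, 83.7 to 96.8), against 56.6%. The intervals lay above the share of all genes in each of the 4 lists. They cover counting error only, and neighbouring histone genes are not independent, because the best peaks of the 65 genes in EA-HFSCs were 34 distinct peaks.

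**Figure D1:**
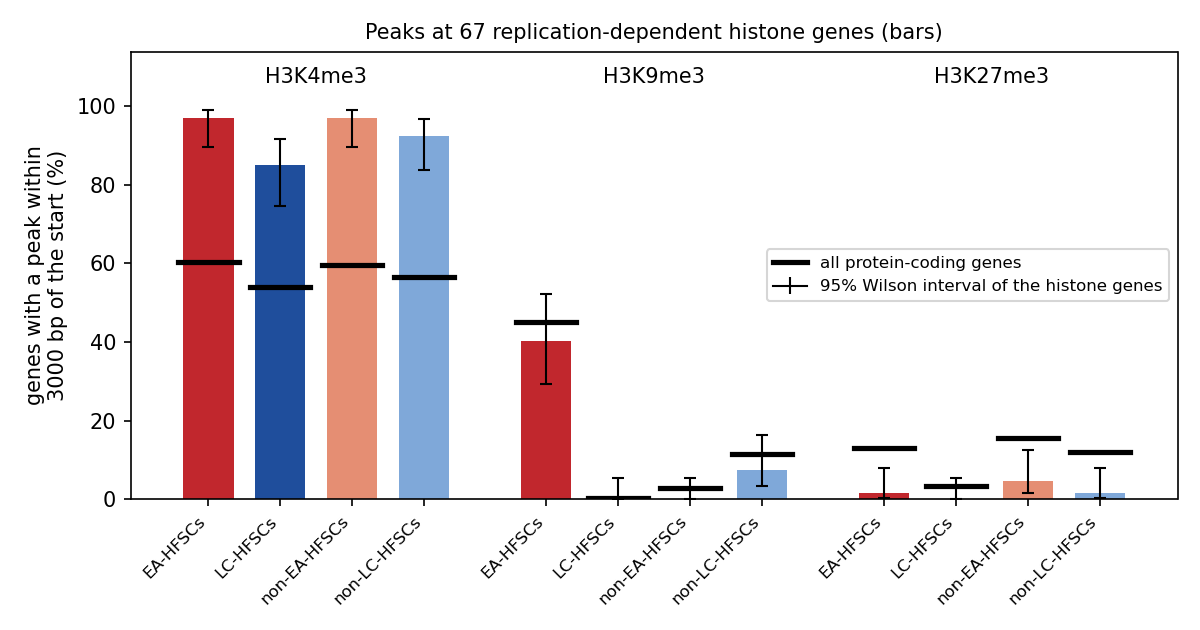
Percent of the 67 histone genes with a peak within 3000 bp of the start (bars, with 95% Wilson intervals) and of all 22367 protein-coding genes (black lines), for each mark and population. The histone genes stood above all genes for H3K4me3 in the 4 populations (85.1 to 97.0%), and below them for H3K27me3, where the LC-HFSC interval held the share of all genes.

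Counted directly over the start, H3K4me3 lay at 59 histone genes in EA-HFSCs (88.1%, 78.2 to 93.8), against 57.0% of all genes, and at 51 in LC-HFSCs (76.1%, 64.7 to 84.7), against 51.2%. The peaks were broad for genes this short. Among histone genes the share under a peak in EA-HFSCs was highest within 100 bp of the start (88.1% at the start and at 100 bp to either side), and was still 79.1% at 1000 bp before the start and 73.1% at 1000 bp after it. All genes reached 57.2% at 100 to 300 bp after the start, with 33.6% at 1000 bp before and 52.6% at 1000 bp after it. The histone genes were thus covered on both sides, where genes in general were covered mostly downstream. Cover before a start can be that of a neighbour, since 12 H2A/H2B pairs point away from each other with starts 168 to 306 bp apart. In LC-HFSCs the highest share was 76.1%, with 62.7% at 1000 bp before the start and 53.7% at 1000 bp after it.

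**Figure D2:**
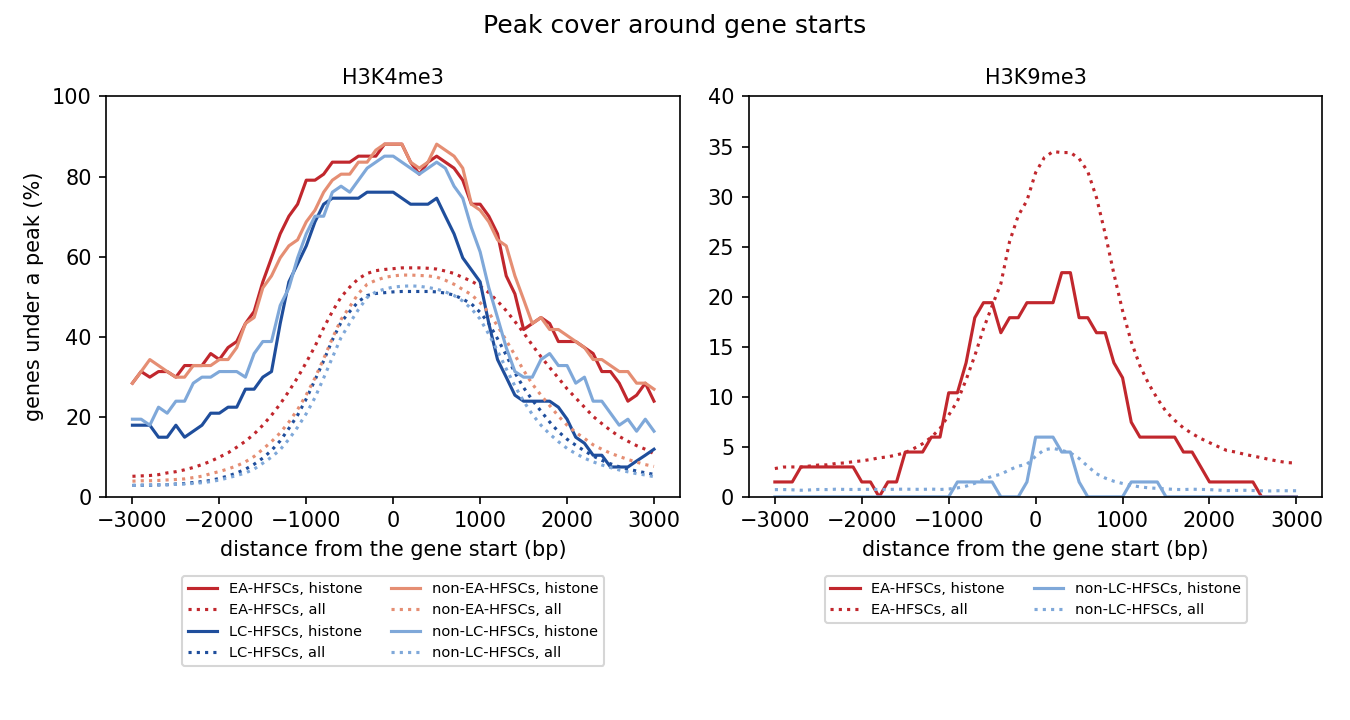
Percent of genes under an H3K4me3 peak (left) or an H3K9me3 peak (right) by distance from the gene start in bp, for histone genes (solid lines) and all protein-coding genes (dotted lines). H3K4me3 reached 88.1% of histone genes and 57.2% of all genes in EA-HFSCs, and H3K9me3 reached 22.4% and 34.5%.

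Several starts often shared 1 peak. In EA-HFSCs, 35 H3K4me3 peaks covered the 59 starts, and 16 of these peaks covered at least 2 starts and 40 genes together. A peak of 7084 bp covered 5 starts (Hist1h2ae, Hist1h2bg, Hist1h2bf, Hist1h2ad and Hist1h3d), and the widest, of 7600 bp, covered Hist1h4h, Hist1h2af and Hist1h3g. In LC-HFSCs no peak covered more than 3 starts and the widest was 6192 bp, and in non-EA-HFSCs the most was again 5. The width of the best peak had a median of 3304 bp in EA-HFSCs (3094 bp over all genes with a peak) and 2456 bp in LC-HFSCs (2561 bp). It was 3720 bp in non-EA-HFSCs (2550 bp) and 2767 bp in non-LC-HFSCs (2299 bp). A wide peak counts in these medians once for each gene that shares it. Taken once each, the peaks over histone gene starts had medians of 2888, 2426, 3126 and 2323 bp in the same order.

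The scores of the histone genes were spread over most of the range. Ranked among all genes with an H3K4me3 peak in the same list, their median percentile was 51.7 in EA-HFSCs, 53.9 in LC-HFSCs, 46.2 in non-EA-HFSCs and 30.9 in non-LC-HFSCs. In non-LC-HFSCs 21 of 62 lay above the median gene of the list, and in EA-HFSCs 33 of 65 did. In both HFSC lists the histone genes were thus centred near the middle of all marked genes by their best peak. That peak can be a neighbour's. In EA-HFSCs Hist1h4f was ranked by the peak over Hist1h1d, with a score of 1618, while its own start lay under one of 646.8.

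The highest H3K4me3 scores in EA-HFSCs belonged to a few loci. Hist1h2ac (H2A) and Hist1h2bc (H2B), the pair whose intergenic sequence is printed here, shared a peak with a score of 2854 in EA-HFSCs, 469.4 in LC-HFSCs, 1606 in non-EA-HFSCs and 986.8 in non-LC-HFSCs. This placed the pair at percentile 92.9 in the EA-HFSC list and 79.3 in the LC-HFSC list, against 37.3 and 32.1 in the CD34- populations of the same ages. The pair ranked higher in both HFSC lists than in both CD34- lists.

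The linker histone gene Hist1h1b had a peak with a score of 2843 in EA-HFSCs, 387.8 in LC-HFSCs, 3100 in non-EA-HFSCs and 3100 in non-LC-HFSCs. The same peak was the best within 3000 bp of Hist1h3i (H3), whose own start lay under a separate EA-HFSC peak with a score of 539.9. Hist1h4h (H4) had scores of 2062, 597.3, 3100 and 1976 in the same order of populations. A score of 3100 recurs at many genes, so that ranks near the top of a list are tied.

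**Figure D3:**
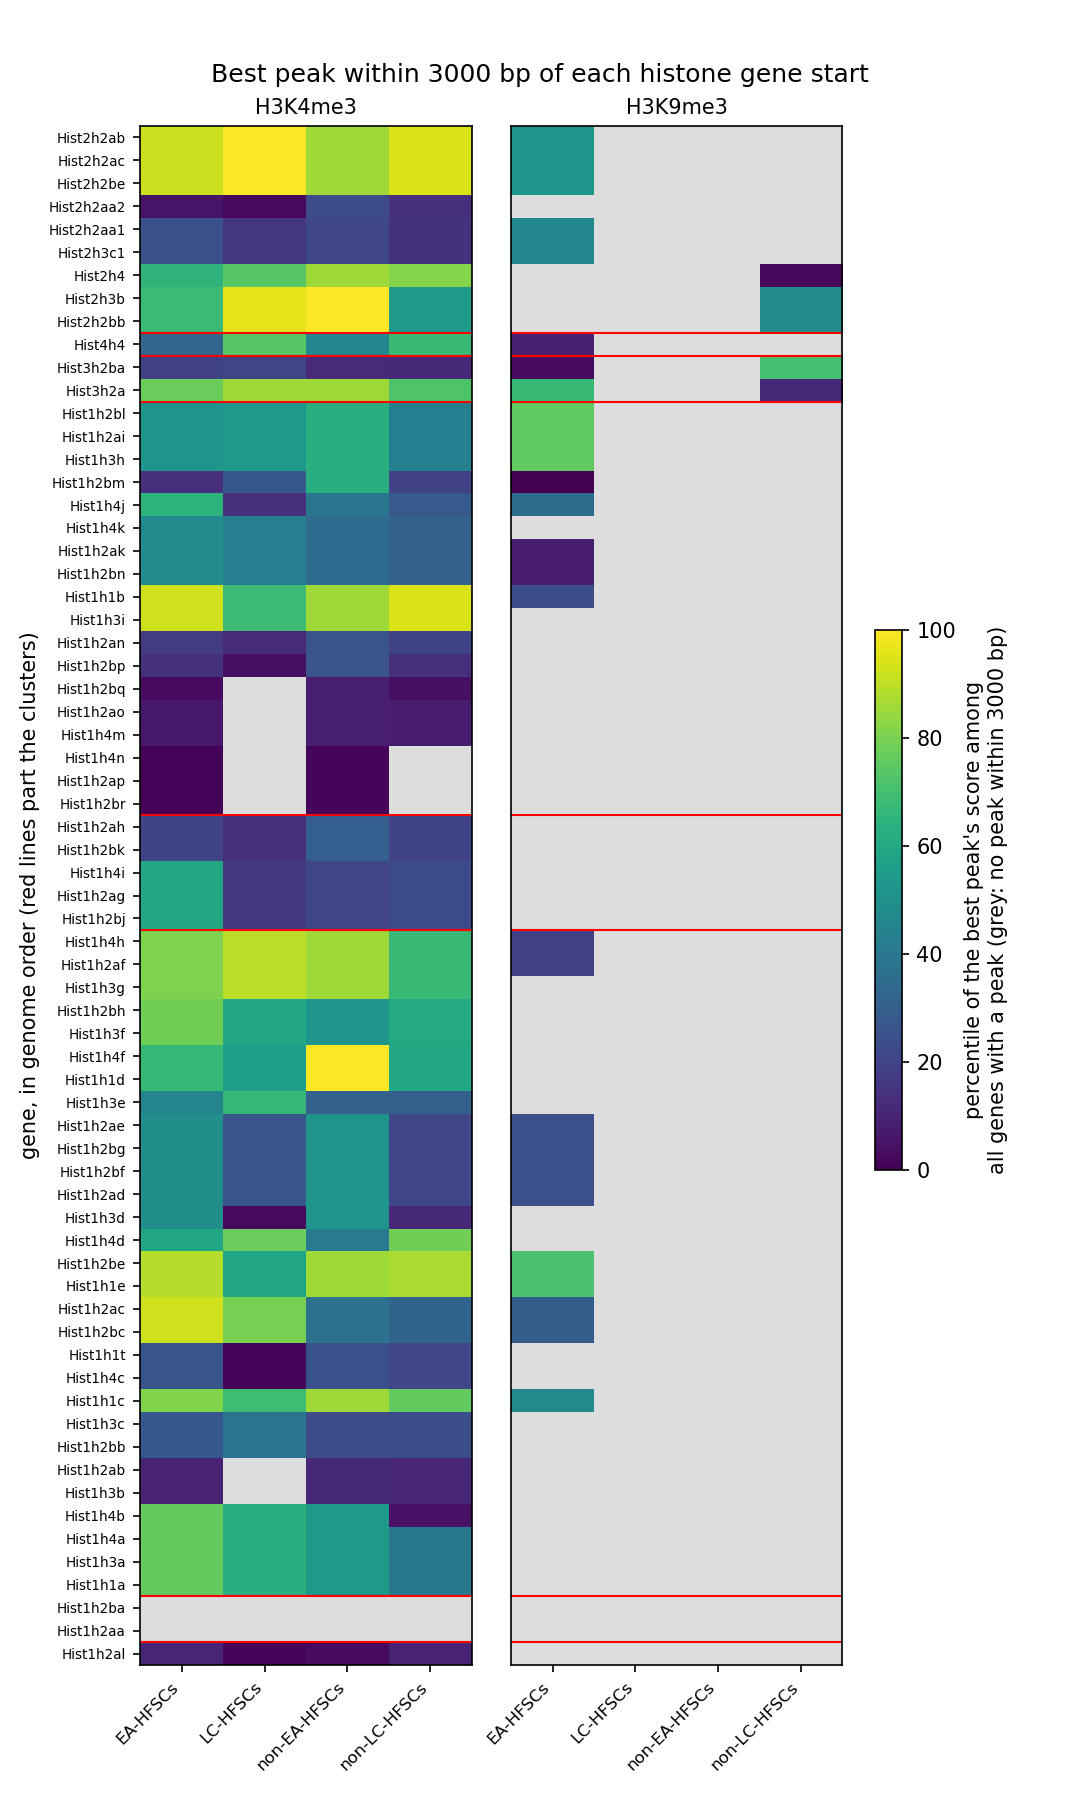
Percentile of the best peak's score among all genes with a peak in the same list, for H3K4me3 (left) and H3K9me3 (right), with the 67 histone genes in genome order and 1 column for each population; grey marks genes with no peak within 3000 bp and red lines part the clusters. H3K4me3 was absent in all 4 lists at Hist1h2ba and Hist1h2aa only, and H3K9me3 was present in EA-HFSCs (27 genes) and non-LC-HFSCs (5 genes).

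The pair Hist1h2ba and Hist1h2aa had no H3K4me3 peak in any of the 4 populations, nor a peak of either other mark. These genes encode H2B and H2A variants known from testis. Of the 70-base sequences within 3000 bp of their starts, 98.1% occur once in the genome. Hist1h1t, the testis H1, had a peak within 3000 bp, with a score of 768.8 in EA-HFSCs, 58.85 in LC-HFSCs, 1038 in non-EA-HFSCs and 638.8 in non-LC-HFSCs. That peak covers the start of its neighbour Hist1h4c, and no H3K4me3 peak covered the start of Hist1h1t in any list. The 3 genes known from testis thus had no H3K4me3 peak over their starts in the 4 populations. The same held for Hist1h2bq, Hist1h2ao, Hist1h4m, Hist1h2ap and Hist1h2br. Of all genes, 51.2 to 57.0% had a peak over the start in the 4 lists.

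Between early anagen and late catagen, 8 of the 65 histone genes called for H3K4me3 in EA-HFSCs lacked the call in LC-HFSCs (12.3%, 6.37 to 22.5). The share was 11.0% among all genes with H3K4me3 in EA-HFSCs, which lies inside this interval. From non-EA-HFSCs to non-LC-HFSCs 3 of 65 lost it (4.62%, 1.58 to 12.7), against 5.66% of all genes. Among genes kept at both ages in HFSCs, the length under H3K4me3 within 3000 bp of the start was shorter in LC-HFSCs at 54 of 57 histone genes (94.7%), with a median ratio of 0.797. Over all kept genes it was shorter at 88.8%, with a median ratio of 0.837.

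The 8 genes with a call in EA-HFSCs and none within 3000 bp in LC-HFSCs fell at 2 places. Counted over the start, Hist2h2aa2, Hist1h4i, Hist1h2bf, Hist1h2ad and Hist1h4b also lacked H3K4me3 in LC-HFSCs but not in EA-HFSCs. A peak elsewhere in the window kept their call, at Hist1h4b with 16 bp. Hist1h2ab and Hist1h3b, neighbours in cluster 6, shared a peak of 2225 bp with a score of 272.2 in EA-HFSCs, none in LC-HFSCs, 299.8 in non-EA-HFSCs and 252.2 in non-LC-HFSCs. These scores lay low in their lists, at percentile 9.74 in EA-HFSCs.

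The other 6 were the last genes of cluster 4: Hist1h2bq, Hist1h2ao, Hist1h4m, Hist1h4n, Hist1h2ap and Hist1h2br. Their EA-HFSC scores ran from 59.74 to 169.9, and their percentiles from 0.833 to 6.27. Hist1h4n, Hist1h2ap and Hist1h2br shared a peak with a score of 59.74 in EA-HFSCs and one of 68.47 in non-EA-HFSCs. They were also the 3 histone genes that lost the call from non-EA-HFSCs to non-LC-HFSCs.

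These 6 genes lie in a repeated stretch. Reads were trimmed to 70 bp and poorly placed alignments were removed, and only 3.32 to 32.4% of the 70-base sequences within 3000 bp of their starts occur once in the genome. The other 61 histone genes had 55.0 to 100%. The median over all 67 was 90.7%, against 99.1% for 1115 other genes (every 20th). The sequences between the starts of the 2 H2A/H2B pairs in this stretch are shown because they carry the repeat, in mm9 on the plus strand, with CCAAT and its reverse complement in capitals.
Hist1h2bq/Hist1h2ao, chr13:21902069-21902235: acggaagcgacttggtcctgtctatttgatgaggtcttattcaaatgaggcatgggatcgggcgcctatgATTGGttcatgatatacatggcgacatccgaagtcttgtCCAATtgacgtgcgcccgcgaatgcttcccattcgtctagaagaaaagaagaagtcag
Hist1h2ap/Hist1h2br, chr13:21925445-21925611: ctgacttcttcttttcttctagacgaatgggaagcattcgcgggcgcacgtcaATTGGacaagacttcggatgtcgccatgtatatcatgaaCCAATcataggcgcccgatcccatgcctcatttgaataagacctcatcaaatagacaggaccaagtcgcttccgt
The second is the reverse complement of the first over all 167 bases, with 0 differences. No H3K4me3 peak covered both starts of either pair in any population. Without the 6 genes, 2 of 59 histone genes lost the call from EA-HFSCs to LC-HFSCs (3.39%, 0.935 to 11.5), against 11.0% of all genes. In the CD34- cells 0 of 59 lost it (at most 6.11%), against 5.66%. The shares of all genes lay inside both intervals, with and without the 6 genes. These shares were not restricted to genes with unique sequence, and a peak elsewhere in the window can keep a histone gene's call. The part of read placement in these calls was not tested.

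**Figure D4:**
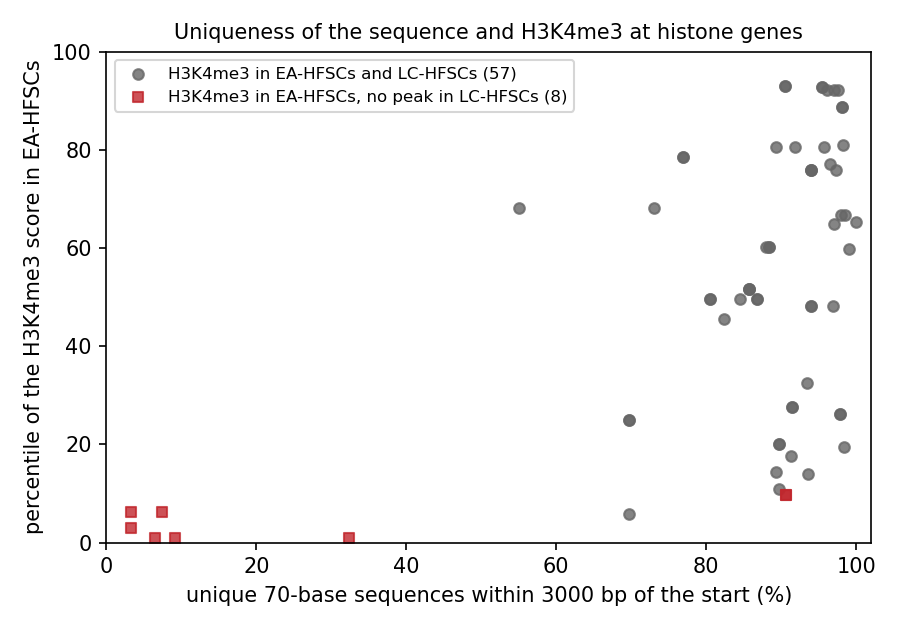
Percentile of the H3K4me3 score in EA-HFSCs against the percent of 70-base sequences within 3000 bp of the start that occur once in the genome, for the 65 histone genes with an H3K4me3 peak in EA-HFSCs; red squares are the 8 genes without a peak in LC-HFSCs. Of the squares, 6 lie at 3.32 to 32.4% unique and percentile 0.833 to 6.27, and the remaining pair, Hist1h2ab and Hist1h3b, at 90.7% and 9.74.

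The number of histone genes with H3K9me3 differed widely between the lists. A peak stood within 3000 bp of 27 histone genes in EA-HFSCs (40.3%, 29.4 to 52.3), against 45.2% of all genes, so the histone genes stood near the background. LC-HFSCs had a peak at 0 of 67 (at most 5.42%), against 0.295% of all genes, and non-EA-HFSCs at 0 of 67, against 2.80%. Non-LC-HFSCs had one at 5 (7.46%, 3.23 to 16.3), against 11.6% of all genes. The lists themselves hold 42277 peaks in EA-HFSCs against 1414 in LC-HFSCs, and 17873 in non-EA-HFSCs against 18236 in the later CD34- cells, and the part of read number in these differences was not tested.

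H3K9me3 was also counted among the genes that carry H3K4me3. In EA-HFSCs 27 of the 65 had both marks (41.5%, 30.4 to 53.7), against 67.5% of all genes with H3K4me3, a count that rests on 15 shared peaks. In non-LC-HFSCs 5 of 62 did (8.06%, 3.49 to 17.5), and the 16.4% of all genes lay inside that interval. Directly over the start, H3K9me3 lay at 13 histone genes in EA-HFSCs (19.4%, 11.7 to 30.4), against 32.4% of all genes.

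The H3K9me3 peaks at histone genes scored 40.09 to 118.5 in EA-HFSCs, where the list reaches 2983, and the median percentile among all genes with a peak was 29.3. With a score of at least 100 required, 6 histone genes kept a peak (8.96%, 4.17 to 18.2), and the 15.7% of all genes lay inside that interval. Among the 1414 highest-scoring EA-HFSC peaks, as many as the LC-HFSC list holds, none lay within 3000 bp of a histone gene (at most 5.42%), and the 3.27% of all genes again lay inside the interval.

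The 27 genes shared 15 H3K9me3 peaks of 531 to 2159 bp, and each of the 15 lay wholly on H3K4me3 peaks of the same cells. Of all 10944 EA-HFSC H3K9me3 peaks within 3000 bp of a protein-coding gene start, 79.2% touched an H3K4me3 peak and 70.2% lay wholly on H3K4me3 peaks. The strongest stood at Hist1h2bl, Hist1h2ai and Hist1h3h, in a peak of 1196 bp with a score of 118.5. The linker histone gene Hist1h1e and Hist1h2be shared a peak with a score of 109.3, Hist3h2a had 104.3, Hist2h2ab, Hist2h2ac and Hist2h2be shared one of 82.69, and Hist1h1c had 77.21. The annotated start of Hist1h2be lies beside Hist1h1e and 35168 bp from its start codon, so its calls are those of the Hist1h1e locus. Hist2h3c1, counted as an H3 gene, has its annotated start at chr3:96049477, beside that of Hist2h2aa1 at chr3:96049461. These neighbours share the same best peaks in each list.

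H3K9me3 in EA-HFSCs was found at 10 of 19 H2A, 9 of 18 H2B, 3 of 6 H1, 2 of 11 H3 and 3 of 13 H4 genes. By cluster it was found at 5 of 9 Hist2h genes, at Hist4h4, at both Hist3h genes, at 8 of 18 genes of cluster 4 and 11 of 29 genes of cluster 6, and at no gene of clusters 5, 7 and 8. In non-LC-HFSCs the 5 genes were Hist2h4, Hist2h3b, Hist2h2bb, Hist3h2ba and Hist3h2a, with scores of 40.27 to 59.19. Hist3h2ba and Hist3h2a were called in both lists, while the 3 Hist2h genes called in non-LC-HFSCs were not called in EA-HFSCs.

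H3K27me3 was scarce at the histone genes. It lay within 3000 bp of 1 gene in EA-HFSCs (1.49%, 0.264 to 7.98), against 13.0% of all genes, and of 0 in LC-HFSCs (at most 5.42%), against 3.39%. In non-EA-HFSCs it lay at 3 (4.48%, 1.53 to 12.4), against 15.6%, and in non-LC-HFSCs at 1 (1.49%, 0.264 to 7.98), against 11.9%. The share of all genes lay inside the interval in LC-HFSCs and above it in the other lists. Among genes with H3K4me3 in EA-HFSCs, 1 of 65 histone genes had both marks (1.54%, 0.272 to 8.21), against 13.1% of all genes.

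The H3K27me3 peaks at histone genes were low and rarely over a start. Hist1h2al had peaks with a score of 44.14 in EA-HFSCs and 61.88 in non-EA-HFSCs, both away from its start. Hist3h2ba had one of 59.72 in non-EA-HFSCs and one of 100.4 in non-LC-HFSCs, where a further peak covered its start. Hist1h1e had one of 40.20 in non-EA-HFSCs, near the lowest score of that list. Hist1h2al, the lone H2A gene of cluster 8, also had low H3K4me3, with scores of 314.2 in EA-HFSCs, 57.78 in LC-HFSCs, 87.64 in non-EA-HFSCs and 220.1 in non-LC-HFSCs.

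Over whole clusters, from 3000 bp before the first start to 3000 bp after the last, 461682 bp were examined. H3K4me3 peaks covered 28.2% of these bases in EA-HFSCs, 19.6% in LC-HFSCs, 27.5% in non-EA-HFSCs and 23.0% in non-LC-HFSCs. The gap-free genome was covered to 2.19, 1.47, 1.91 and 1.46%, so the clusters held 12.9 to 15.7 times the genome's share. The clusters were bounded by gene starts and the genome was not, so this ratio does not compare them with other gene starts. The covered length in LC-HFSCs was 0.696 of that in EA-HFSCs, and in non-LC-HFSCs 0.835 of that in non-EA-HFSCs. Genome cover was also lower at the later age. Relative to the genome, cluster cover went from 12.9 to 13.3 times in the CD34+ cells and from 14.4 to 15.7 times in the CD34- cells.

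The clusters did not change alike. Cover of the Hist2h cluster went from 42.7% in EA-HFSCs to 22.4% in LC-HFSCs and that of cluster 5 from 52.9 to 36.2%, while Hist4h4 stayed at 44.9 and 44.0% and Hist1h2al had 17.6 and 19.3%. The large clusters 4 and 6 went from 21.5 to 15.1% and from 26.3 to 19.0%. Cover was lower in LC-HFSCs than in EA-HFSCs in 6 of the 7 clusters that had any.

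H3K9me3 covered 4.40% of cluster bases in EA-HFSCs, where it covered 1.48% of the genome, and 0% in LC-HFSCs (0.103% of the genome) and non-EA-HFSCs (0.920%). In non-LC-HFSCs it covered 0.806% (0.455% of the genome). The share was highest at Hist4h4 in EA-HFSCs (24.8%) and at the Hist3h genes (15.1% in EA-HFSCs and 12.0% in non-LC-HFSCs). Gene starts are dense in these clusters, and the share of genes with H3K9me3 given here was not above that of all genes. H3K27me3 covered 0.537% of cluster bases in EA-HFSCs (2.27% of the genome), 0% in LC-HFSCs (0.289%), 1.65% in non-EA-HFSCs (2.67%) and 0.504% in non-LC-HFSCs (1.40%).

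**Figure D5:**
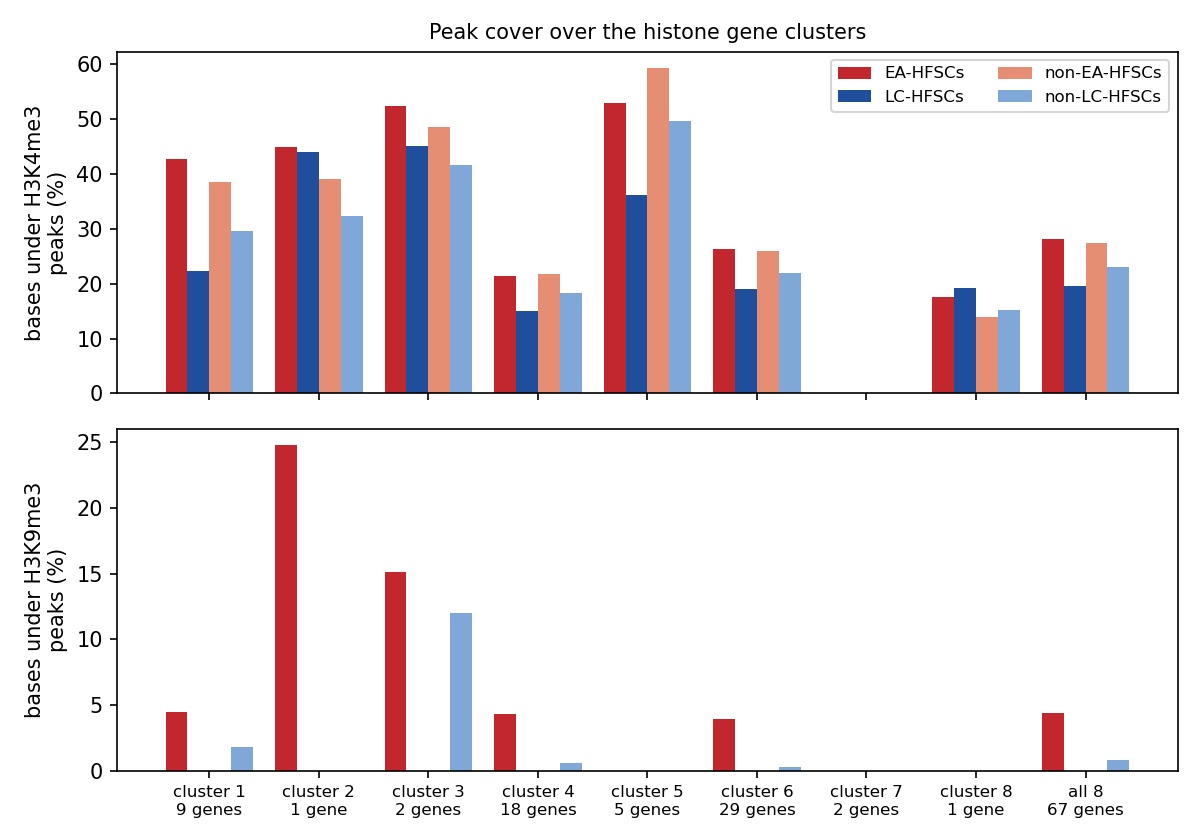
Percent of the bases of each histone gene cluster under H3K4me3 peaks (top) and H3K9me3 peaks (bottom) in the 4 populations, with all 8 clusters together at the right. Over all clusters the EA-HFSC bar stands at 28.2% and the LC-HFSC bar at 19.6% for H3K4me3, and at 4.40% and 0% for H3K9me3; cluster 7 has no cover.

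Genes that act on the histone genes carried H3K4me3 as well. All 18 genes for histone gene transcription and mRNA processing had H3K4me3 in each of the 4 populations, among them Npat, Slbp and the U7 snRNP genes Lsm10 and Lsm11. H3K9me3 lay at 13 of the 18 in EA-HFSCs, 0 in LC-HFSCs, 0 in non-EA-HFSCs and 3 in non-LC-HFSCs. Of all genes with H3K4me3, 67.5% had H3K9me3 in EA-HFSCs and 16.4% in non-LC-HFSCs, so these counts were near the background. The scaffold protein gene Sympk was the 1 gene among them with H3K27me3, with scores of 168.9 in EA-HFSCs, 138.1 in non-EA-HFSCs and 63.71 in non-LC-HFSCs. All 10 histone chaperone genes had H3K4me3 in each population, and H3K9me3 lay at 9 in EA-HFSCs, 0 in LC-HFSCs, 0 in non-EA-HFSCs and 2 in non-LC-HFSCs. Among all genes, H3K4me3 lay at 53.9 to 60.4% over the 4 lists, and H3K9me3 at 45.2, 0.295, 2.80 and 11.6%. With 10 to 18 genes a list, these counts are given as a description.

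The replication-independent histone genes, which supply variants such as H3.3 and H2A.Z outside S phase, were compared as the nearest relatives. All 10 that could be matched had H3K4me3 in each population, and H3K9me3 lay at 7 in EA-HFSCs, 0 in LC-HFSCs, 1 in non-EA-HFSCs and 1 in non-LC-HFSCs, beside the same shares of all genes. H3K27me3 lay at 1 of them, H2afy2, in non-EA-HFSCs. The 3 other protein-coding genes inside the clusters, Trim17, Gm17658 and Hfe, had H3K4me3 in each population, and Trim17 shared its best peaks with Hist3h2a.

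The labels of the populations were checked against marker genes. Cd34, the marker of the sort, had H3K4me3 in EA-HFSCs and LC-HFSCs, with scores of 3100 and 1735, and in neither CD34- population, where it had H3K27me3 with scores of 271.2 in non-EA-HFSCs and 119.7 in non-LC-HFSCs. Itga6, the gene of the other sorting marker, and the keratinocyte gene Trp63 had no H3K4me3 peak within 3000 bp of their annotated start in any list. H3K4me3 lay at 7, 7, 6 and 5 of 8 bulge markers and at 3 of 4 basal keratinocyte markers in each list. It lay at 0 of 3 leukocyte, 1 of 3 endothelial and 2 of 3 fibroblast markers in each list, and at 1, 1, 1 and 0 of 3 melanocyte markers. Of all genes, 53.9 to 60.4% had H3K4me3 over the 4 lists. The endothelial marker Kdr also had H3K27me3 in each list, the fibroblast marker Pdgfra in each but LC-HFSCs, and the fibroblast marker Col1a1 in both CD34- lists. The part of leukocytes, endothelial cells, fibroblasts and melanocytes in the histone gene peaks was not tested.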

How the data were processed

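The data were 12 peak lists, 1 for each of 3 marks in 4 sorted populations of mouse skin cells. The 4 IgG libraries served the authors as background and were not analysed here as lists. Chromatin was cut with micrococcal nuclease. The authors trimmed single-end reads to 70 bp (the submitters' processing notes name Trimmomatic 0.22), aligned them to mm9 with Bowtie2, removed low-quality alignments, pooled replicate experiments and called peaks with MACS against IgG. The deposited score of a peak is 10 times the negative log10 of its p-value, with a lowest score of 50 for H3K4me3 (p of 1e-05) and 40 for the other marks (p of 0.0001). Read numbers are not in the lists, so peaks could not be corrected for depth, and fewer reads can give fewer peaks. The paper reports that more reads were used for LC-HFSCs than for EA-HFSCs.

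Positions are 1-based on mm9. Genes came from the GENCODE vM1 annotation of the same assembly, and 0 of 218965 peaks on its chromosomes ran past their ends. A gene had a mark when a peak touched the 3000 bp on either side of its start, and its best peak was the highest-scoring one. Cover, overlaps and motif matches were computed with Python 3.11.15 and numpy 2.4.6. The computation of cover and overlaps was tested on simulated data, and the search for motif letters was not. Wilson intervals (95%, scipy 1.17.1) cover counting error only. No test and no p-value were computed, since there is 1 list per population and mark. Of 11 listed replication-independent genes 10 were matched.

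The histone genes, the other gene lists, the markers and the rule for naming genes were chosen with earlier results of these data known. Named were genes with H3K27me3, genes without H3K4me3 in EA-HFSCs or with it lost in LC-HFSCs, the top H3K4me3 gene of each family, the top 5 H3K9me3 genes in EA-HFSCs, every gene with H3K9me3 in LC-HFSCs or non-EA-HFSCs, the 3 testis genes, and listed genes that lack H3K4me3 or have H3K27me3 in EA-HFSCs. Others were named after their values were seen. Alternatives were other score thresholds, windows, starts, equal peak numbers and closer cluster joins.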

Additional observations from a re-analysis of the deposited data

Results flagged for a closer look

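H3K9me3 at the histone genes went opposite ways with age in the CD34+ and the CD34- cells. EA-HFSCs had it at 27 of 67 genes, while LC-HFSCs had it at 0. Non-EA-HFSCs had it at 0 genes, while non-LC-HFSCs had it at 5. Its cover of the clusters went from 4.40% to 0% in the CD34+ cells and from 0% to 0.806% in the CD34- cells. Each value rests on 1 list, and the difference between the cell types was not tested. Among all genes the share with H3K9me3 moved in the same directions, from 45.2 to 0.295% and from 2.80 to 11.6%.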

How the results depend on the processing

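No paired analysis was possible because each population and mark is 1 list without replicates. H3K4me3 at the histone genes stayed within 1.5 times of the reported counts under each of the 8 alternatives in each population. Of these alternatives, 2 were chosen after seeing the data: the start codon in place of the gene start, and the 61 genes with at least 50% unique sequence. With each list cut to as many top peaks as the shortest holds, H3K4me3 lay at 58 genes in EA-HFSCs, 57 in LC-HFSCs, 58 in non-EA-HFSCs and 60 in non-LC-HFSCs. The populations then differed less than in the reported counts. The H3K9me3 count in EA-HFSCs (27) was 6 with a score of at least 100, 13 with a peak over the start and 0 when each list of the mark was cut to as many top peaks as the shortest holds (equal peak numbers). The H3K9me3 count in non-LC-HFSCs (5) was 3 at a score of at least 50 and 0 both at a score of at least 100 and with equal peak numbers. The H3K27me3 count was 0 in EA-HFSCs (1) under both score thresholds, equal peak numbers, a window of 1000 bp and a peak over the start. It was 0 in non-EA-HFSCs (3) at a score of at least 100, with equal peak numbers and over the start, and 0 in non-LC-HFSCs (1) with equal peak numbers. At a score of at least 100, H3K4me3 cover was 26.6% in EA-HFSCs, 18.0% in LC-HFSCs, 26.4% in non-EA-HFSCs and 22.8% in non-LC-HFSCs. With clusters joined over 20 kb, which leaves out bases between genes, it was 43.5, 30.1, 42.3 and 35.2% in the same order. With equal peak numbers it was 25.2% in EA-HFSCs, 25.6% in non-EA-HFSCs and 21.9% in non-LC-HFSCs. H3K9me3 cover in EA-HFSCs was 3.57% at 50, 0.996% at 100, 0% with equal peak numbers and 6.28% with clusters joined over 20 kb, and in non-LC-HFSCs 0.181, 0, 0 and 0.847%. Lower cover in LC-HFSCs than in EA-HFSCs held for H3K4me3 under each alternative. Why the low H3K9me3 and H3K27me3 counts moved was not tested beyond the thresholds themselves. The lists give no read numbers to correct for depth, which limits each comparison of populations.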
